A study of Mus musculus with 12 samples.

Results

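The retina of the mouse embryo holds dividing progenitors beside newborn neurons, and 43 genes of the cell cycle machinery were followed in its RNA, of 19954 genes listed in the table of counts. They were chosen by name: 8 genes of G1 and S phase entry, 11 of DNA replication, 13 of mitotic entry and exit, 9 of the spindle and chromosomes, and 2 inhibitors of cyclin-dependent kinases (CDK). Each of the 43 was listed and passed the filter on low counts, with between 128 and 20395 counts in a library. The question put to them was whether genes of S phase and genes of mitosis differed between mutant and wildtype retinas.

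The study sequenced RNA of whole retinas at embryonic day E15.5 from C57BL/6 mice, in 12 libraries that were each a pool of 12 retinas from several litters. The 6 wildtype libraries comprised 3 of males and 3 of females. The 6 mutant libraries, likewise 3 of males and 3 of females, came from Tbr2 f/f;Six3-Cre embryos, in which floxed alleles of the T-box transcription factor gene Tbr2 (listed as Eomes) meet a Cre recombinase driven by Six3, a gene of the early eye field. Libraries carried the numbers 4, 5 and 6 within each group. The labels name no Cre-only and no floxed-only control, so an effect of Six3-Cre itself and of the loss of Tbr2 cannot be told apart here. P-values measure the spread between pools, not between embryos.

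Depth ran from 18514607 to 27072825 counts per library. Eomes stood at 53.4 to 76.1 CPM (counts scaled to a common library total) in wildtype libraries and at 9.62 to 27.4 CPM in mutant libraries, lower in every mutant. The summed level of 10 markers of retinal progenitors lay between 3630 and 4327 CPM in all 12 libraries, so the labelled tissue and its dividing cells were present throughout. Lens RNA varied between pools, with the lens crystallin Cryaa at 0.918 to 907 CPM, and all 8 lens genes tested had a positive mutant minus wildtype difference, none past the threshold. The mitochondrial transcript mt-Nd6 was above 200 CPM in 5 libraries and below it in 7, and mutant male 6 stood apart from the other libraries. What both did to the cell cycle genes is given after the comparisons.

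Cyclins switch on CDKs, which drive a cell from one phase of division to the next. In G1, D-type cyclins with Cdk4 or Cdk6 release E2F transcription factors, which turn on the genes of DNA replication. In G2 a second wave of genes for mitosis is turned on through promoters that often carry CCAAT boxes and an element named the cell cycle homology region (CHR). Retinal progenitors divide repeatedly, their nuclei moving to the apical surface for mitosis, and CDK inhibitors such as Cdkn1b and Cdkn1c take part in their exit from the cycle.

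The promoters of the members show this division of the cycle in their letters. Windows of 300 bases, 250 before to 50 after the start, were held by the RefSeq table of build GRCm38.p6 for 35 of the 43 members (37 windows) and numbered 32851 in all. An E2F element (TTTCCCGC, TTTCGCGC, TTTGCCGC or TTTGGCGC, searched on both strands) lay in 6 of 11 windows of DNA replication genes (54.5%), in 1 of 18 windows of mitosis genes (5.56%) and in 2.26% of all windows. CHR letters (TTCGAA or TTTGAA, both strands) lay in 14 of 18 windows of mitosis genes (77.8%), in 2 of 11 of replication genes (18.2%), in 0 of 7 of G1 genes and in 19.2% of all windows. The CCAAT box (CCAAT, both strands) was present in 16 of 18 mitosis windows (88.9%) and 9 of 11 replication windows (81.8%), against 37.4% of all. Both a CHR and a CCAAT box stood in 77.8% of mitosis windows and in 7.52% of all windows. These shares are descriptions of sequence: a match is not a binding site, and the genes were chosen for their known roles.

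Printed below are the 150 bases up to the RefSeq start of 7 members, 5′ to 3′ on the gene's strand, with E2F elements, CHR letters and CCAAT boxes in capitals. Mcm5 and Mcm6 show the replication class, Rrm2 is the member of lowest edgeR p over both sexes, and Cdc20, Ube2c, Top2a and Mki67 show the mitosis class.
Mcm5, chr8:75109359-75109508, plus strand: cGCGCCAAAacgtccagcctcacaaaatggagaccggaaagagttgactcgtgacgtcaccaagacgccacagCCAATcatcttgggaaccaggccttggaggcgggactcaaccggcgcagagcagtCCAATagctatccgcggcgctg
Mcm6, chr1:128359706-128359855, minus strand: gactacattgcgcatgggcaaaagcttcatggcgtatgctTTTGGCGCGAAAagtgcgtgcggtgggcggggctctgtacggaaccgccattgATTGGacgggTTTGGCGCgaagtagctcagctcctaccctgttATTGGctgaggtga
Rrm2, chr12:24708104-24708253, plus strand: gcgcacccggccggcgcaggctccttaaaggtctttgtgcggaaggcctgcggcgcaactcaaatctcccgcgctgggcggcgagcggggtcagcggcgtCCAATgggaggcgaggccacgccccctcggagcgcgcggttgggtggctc
Cdc20, chr4:118437344-118437493, minus strand: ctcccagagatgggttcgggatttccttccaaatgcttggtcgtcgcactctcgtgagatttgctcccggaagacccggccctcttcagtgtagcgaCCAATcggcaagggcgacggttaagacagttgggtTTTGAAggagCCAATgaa
Ube2c, chr2:164769779-164769928, plus strand: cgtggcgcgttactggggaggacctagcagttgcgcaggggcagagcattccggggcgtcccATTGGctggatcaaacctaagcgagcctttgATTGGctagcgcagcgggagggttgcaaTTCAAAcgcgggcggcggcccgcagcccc
Top2a, chr11:99024190-99024339, minus strand: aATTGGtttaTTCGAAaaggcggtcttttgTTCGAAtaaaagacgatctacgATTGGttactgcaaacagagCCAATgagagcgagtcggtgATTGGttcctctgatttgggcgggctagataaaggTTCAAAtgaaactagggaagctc
Mki67, chr7:135716380-135716529, minus strand: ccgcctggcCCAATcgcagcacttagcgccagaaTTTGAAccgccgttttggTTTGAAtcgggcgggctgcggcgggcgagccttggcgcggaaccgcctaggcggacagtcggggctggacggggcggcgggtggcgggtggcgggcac
In Mcm6, TTTGGCGC begins 110 and 47 bases before the start (positions -110 and -47, counted back from the start), and an overlapping element on the other strand begins at -106. The E2F element printed in Mcm5 begins at -149, and another begins just upstream of the stretch. Rrm2 holds a single CCAAT box, at -50, and no E2F element in the stretch printed. CHR letters begin at -18 in Cdc20 and at -29 in Ube2c, each with at least 1 CCAAT box upstream. Top2a has CHR letters at -140, -120 and -23, and Mki67 has them at -116 and -98.

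Levels per gene length were compared on the FPKM scale (fragments scaled by gene length and library size), as means over the 12 libraries. Cdk4, the G1 kinase, was highest at 300.2 FPKM, and its range over libraries, 268 to 321, lay above that of every other member. The sliding clamp Pcna followed at 193 FPKM and topoisomerase Top2a, which untangles chromosomes, at 129. From Pcna down, each gene's range over libraries overlapped that of the next in the order, so neighbours in it were not separated beyond their spread.

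**Figure D1:**
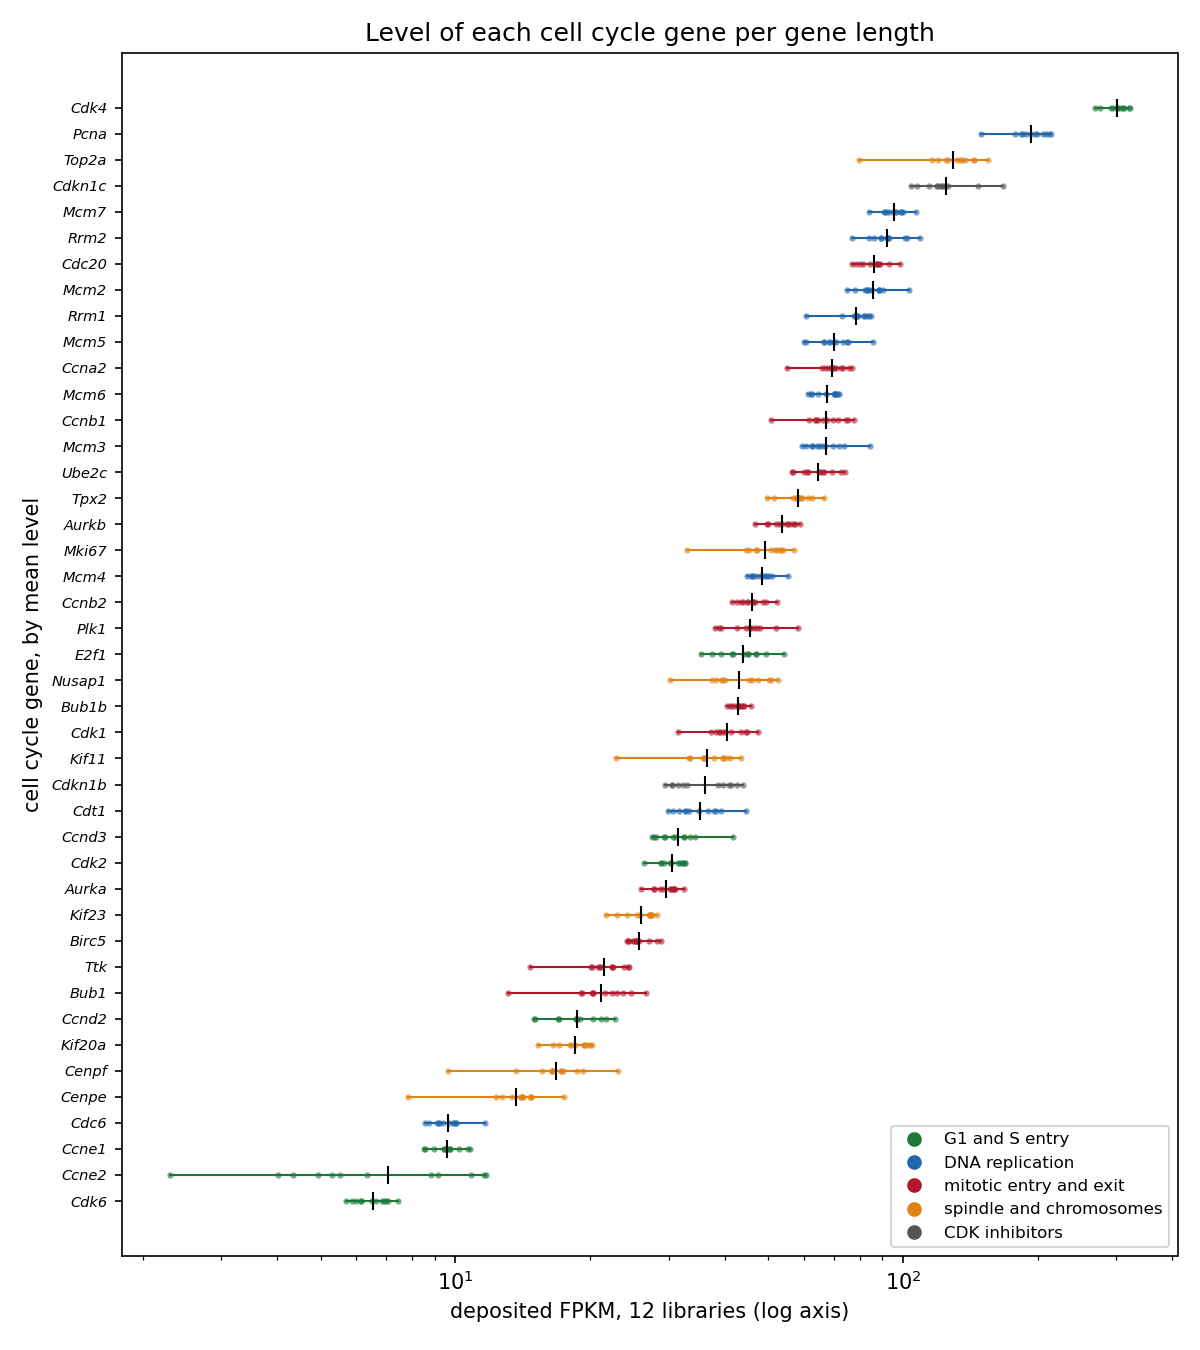
Level of each of the 43 cell cycle genes in FPKM on a log axis, ordered by mean. Small points are the 12 libraries, the black tick is their mean, and the colour gives the role; Cdk4 is highest at 300.2 FPKM and Cdk6 lowest at 6.53 FPKM.

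Partners in one reaction were not at equal levels. Cdk6, the other kinase of D-type cyclins, was the lowest member at 6.53 FPKM, and Cdk4 exceeded it 46.3 ± 5.07 times (SD over 12 libraries). Cyclins Ccnd3 and Ccnd2 stood at 31.5 and 18.7 FPKM, while Ccnd1, the main D-type cyclin of retinal progenitors and no member here, exceeded Ccnd3 25.8 ± 2.40 times and Ccnd2 43.8 ± 7.30 times. By genotype these ratios differed by less than their SD: Ccnd1 over Ccnd2 was 43.7 ± 6.33 in wildtype and 43.9 ± 8.79 in mutants (n = 6 each). The 6 subunits of the MCM helicase, which opens DNA ahead of the replication fork, ranged from 48.5 FPKM (Mcm4) to 95.4 FPKM (Mcm7). Rrm1 and Rrm2, the paired subunits of ribonucleotide reductase, which makes DNA building blocks, were at 78.5 and 92.4 FPKM. Of the CDK inhibitors, Cdkn1c (p57) was at 125 FPKM and Cdkn1b (p27) at 36.2. The scarcest were cyclins E (Ccne1 9.59, Ccne2 7.07 FPKM), Cdc6 at 9.61, and Cdk6.

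Mutant and wildtype retinas did not differ in any member past the adjusted threshold of 0.05 in the fit of both sexes (edgeR quasi-likelihood test, 15467 genes). Across all genes 4 passed (0.0259%). Of the 43 members, 22 had a log2 difference above 0 and 21 below 0, with a median of 0.0022 against -0.0081 for all genes tested, of which 47.3% were above 0. Without mutant male 6 the members stood 30 above and 13 below, and the difference of 32 members moved by over 1.5 times or turned sign (8 members). This measure is a ratio, so differences near 0 count too, such as Birc5 going from 0.0022 to 0.0054. The share of all genes that moved so was not computed. Among the 5 libraries with much mt-Nd6 the members stood 34 above and 9 below (median 0.05). That set compares only mutant male 4 and mutant female 4 with wildtype male 5 and wildtype females 4 and 6. Among the other 7 libraries the members stood 20 above and 23 below (median -0.03). The share of all genes above 0 is not given for either set, nor for the fit without mutant male 6. The counts of signs in these fits are therefore not read as a lean of the members in mutants. The extremes were Ccne2, cyclin E2, at -0.21 ± 0.35 (SE), and Cdkn1c at +0.21 ± 0.086; without mutant male 6 they were at -0.05 ± 0.32 and 0.14 ± 0.069. Adjusted p-values of the members lay between 0.918 and 0.995. At an unadjusted p below 0.05 stood 3 members, Rrm2, Cdc20 and Cdkn1c, that is 6.98% of the members against a background of 2.92%. Leaving out 1 library at a time gave 1 to 5 such members, with 5 when mutant male 4 was left out and 1 without mutant male 6, without mutant females 5 or 6, or without the wildtypes female 5 or male 4. DESeq2 and limma voom likewise called 0 members and had the same number, 3, at that unadjusted level. The share of all genes at that level is not given for these alternative fits. These counts are therefore not read as a change of the members, nor are later ones that stand without that share. No member separated the 6 mutant from the 6 wildtype libraries, where 0.207% of all genes did. In bulk RNA, fewer cycling cells and less RNA per cell cannot be told apart.

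The fit of both sexes also gave an interval for each member's difference in whole-retina RNA, gene by gene and with no correction for the 43 members. The 95% interval of the log2 difference lay within a 1.2-fold change in either direction for 28 of 43 members, within 1.5-fold for 42 and within 2-fold for 43. Standard errors had a median of 0.075 and ran from 0.044 (Bub1b) to 0.35 (Ccne2). Ccne2 alone had an interval past 1.5-fold, from -0.96 to 0.55. Intervals within 1.2-fold were fewer in the comparisons given below: 4 of 43 in males, 20 in females and 2 in the interaction of genotype and sex. Within 1.5-fold lay 36, 42 and 34.

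**Figure D2:**
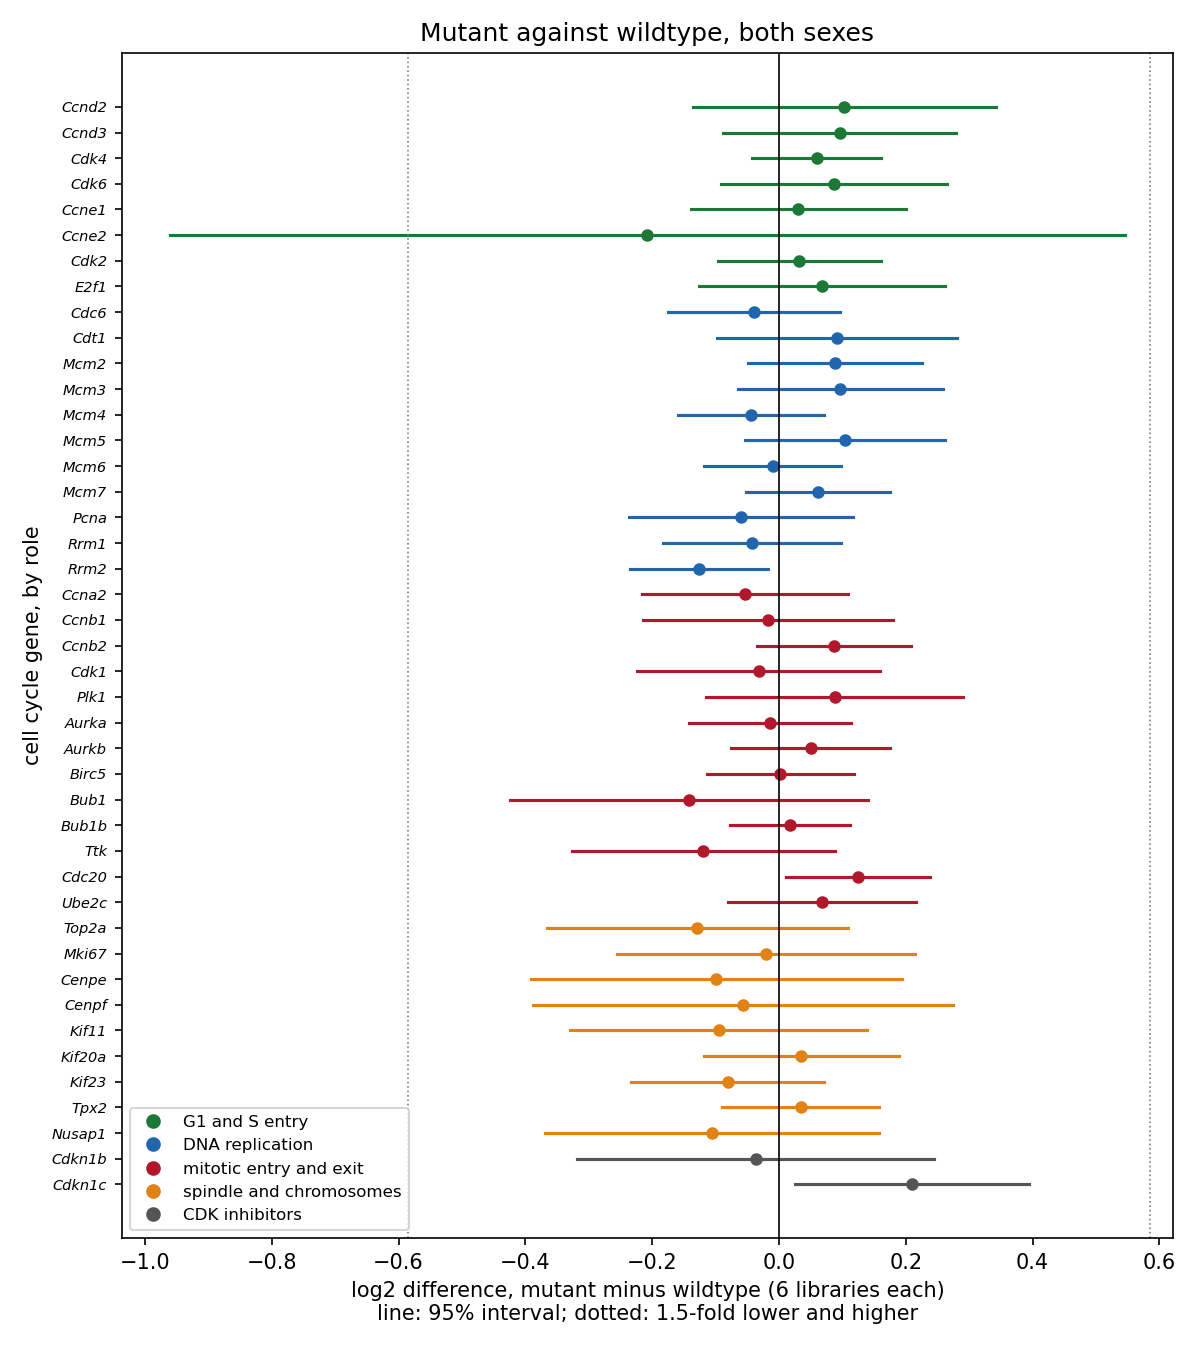
Log2 difference between mutant and wildtype (6 libraries each) for the 43 genes, grouped and coloured by role, with 95% intervals from the edgeR fit and dotted lines at 1.5-fold. Points lie between -0.21 and 0.21, and only the interval of Ccne2 crosses a dotted line.

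Genes of G1 and S phase entry lay slightly above 0: 7 of 8 had a positive difference, with a median of 0.064, and 0 of 8 reached an unadjusted p of 0.05. Cdk4 (ENSMUSG00000006728, mm10 chromosome 10, 127063534 to 127067920) ran from 550.4 through a median of 611 to 639 CPM in wildtype and from 598 through 624 to 659 CPM in mutants, with a difference of 0.06 ± 0.047. Ccnd3 (ENSMUSG00000034165, chromosome 17, 47505051 to 47599691) ran from 106 through 116 to 132 CPM in wildtype and from 109 through 122 to 161 CPM in mutants, a difference of 0.10 ± 0.085. The highest value of Ccnd3 was that of mutant male 6, and without that library its difference was 0.02 ± 0.064. Ccnd2 (ENSMUSG00000000184, chromosome 6, 127125779 to 127151048) spread more widely, from 85.8 through 106 to 116 CPM in wildtype and from 85.6 through 114 to 129.9 CPM in mutants, with a difference of 0.10 ± 0.11. E2f1, the transcription factor released in G1, differed by 0.07 ± 0.09, and Cdk6, Cdk2 and Ccne1 by 0.09, 0.03 and 0.03. Without mutant male 6, E2f1 was at 0.0080 and Ccne1 at 0.05. In each of these genes the genotypes overlapped.

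DNA replication genes were split, with 5 of 11 above 0, 6 below 0 and a median of -0.0096. Rrm2 (ENSMUSG00000020649, chromosome 12, 24708241 to 24714146) was at 196, 185 and 202 CPM in wildtype males 4, 5 and 6 and at 189, 196 and 168 CPM in mutant males 4, 5 and 6. In females it was at 224, 239 and 222 CPM in wildtype and at 204, 203 and 202 CPM in mutants. Each wildtype female thus stood above each mutant female, while the male groups overlapped. Its difference over both sexes was -0.13 ± 0.051 (edgeR unadjusted p = 0.026, adjusted p = 0.918). The sign was the same in all 22 alternative fits, from -0.16 to -0.05.

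The MCM subunits had differences of both signs. Mcm5 (ENSMUSG00000005410, chromosome 8, 75109528 to 75128439) ran from 206 through a median of 235 to 242 CPM in wildtype and from 208 through 255 to 294 CPM in mutants, a difference of 0.10 ± 0.073. Its highest value was again mutant male 6, without which the difference was 0.05 ± 0.057. Mcm3, Mcm2 and Mcm7 were at 0.10, 0.09 and 0.06, Mcm6 at -0.01 and Mcm4 at -0.04. Without mutant male 6, Mcm3, Mcm2 and Mcm7 were each at 0.03 and Mcm6 at 0.0064. The loading factors Cdt1 and Cdc6, which put the helicase on DNA, were at 0.09 and -0.04, and at 0.03 and -0.05 without that library. Pcna (ENSMUSG00000027342, chromosome 2, 132249162 to 132253314) ran from 269.8 through 298 to 322 CPM in wildtype and from 227 through 291 to 325 CPM in mutants, with a difference of -0.06 ± 0.082. Its lowest value was also mutant male 6, without which the difference was -0.0035 ± 0.064. Rrm1, at -0.04 ± 0.065 over all libraries, was at 0.01 ± 0.041 without it.

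Among 13 genes of mitotic entry and exit, 7 were above 0 and 6 below, with a median of 0.0022. Cdc20 (ENSMUSG00000006398, chromosome 4, 118432901 to 118437352), which activates the anaphase-promoting complex, was at 141, 138 and 159 CPM in wildtype males and 157, 157 and 176 CPM in mutant males. In females it was at 144, 156 and 146 CPM in wildtype and at 151, 159 and 167 CPM in mutants. Mutants tended to the upper side in both sexes, with overlap in each. The difference of Cdc20 was 0.12 ± 0.052 (edgeR unadjusted p = 0.033, adjusted p = 0.918), between 0.10 and 0.14 in the 22 alternative fits. Ccnb2 (ENSMUSG00000032218, chromosome 9, 70407689 to 70421554), a B-type cyclin of mitosis, ran from 64.1 through 67.4 to 75.2 CPM in wildtype and from 69.2 through 71.5 to 80.7 CPM in mutants, a difference of 0.09 ± 0.056. Its partner cyclin Ccnb1 and their kinase Cdk1 were at -0.02 and -0.03, and cyclin A (Ccna2) at -0.05. The mitotic kinases Plk1, Aurkb and Aurka were at 0.09, 0.05 and -0.01. Spindle checkpoint genes Bub1, Ttk and Bub1b were at -0.14, -0.12 and 0.02, and Birc5 (survivin), a partner of Aurkb, at 0.0022. Without mutant male 6, Bub1 and Ttk were each at -0.05, Ccnb1 at 0.04, Cdk1 at 0.03, Ccna2 at 0.0002 and Plk1 at 0.01.

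Spindle and chromosome genes lay below 0 in 7 of 9, with a median of -0.08, and 0 of 9 reached an unadjusted p of 0.05. Top2a (ENSMUSG00000020914, chromosome 11, 98992943 to 99024189) was at 660.3, 701 and 626 CPM in wildtype males and at 707, 606 and 418 CPM in mutant males. In females it was at 753, 719 and 751 CPM in wildtype and at 809, 653 and 689 CPM in mutants. The low value is that of mutant male 6 and the high value that of mutant female 4, so mutants lay on both sides of wildtype. Its difference was -0.13 ± 0.11, and -0.04 ± 0.072 without mutant male 6. Mki67 (ENSMUSG00000031004, chromosome 7, 135689788 to 135716379), the gene of the proliferation antigen Ki-67, was at 544, 521 and 451 CPM in wildtype males and at 455.6, 535 and 332 CPM in mutant males. Wildtype females had 512, 472 and 475 CPM and mutant females 576, 527 and 539 CPM. Mki67 differed by -0.02 ± 0.11 over both sexes and by 0.07 ± 0.071 without mutant male 6. Kif23 (ENSMUSG00000032254, chromosome 9, 61917280 to 61946799), a kinesin of the last step of cell division, ran from 82.8 through 93.2 to 96.7 CPM in wildtype and from 74.2 through 90.0 to 93.9 CPM in mutants, a difference of -0.08 ± 0.07, and of -0.04 ± 0.062 without mutant male 6. Without that library the 9 genes stood 5 above and 4 below 0, with a median of 0.0142.

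The CDK inhibitors had differences of opposite sign. Cdkn1c (ENSMUSG00000037664, chromosome 7, 143458350 to 143461050) was at 220.3, 236 and 237 CPM in wildtype males and at 231, 244 and 324 CPM in mutant males. In females it was at 207, 202 and 234 CPM in wildtype and at 229.9, 284 and 239 CPM in mutants. The lower end was wildtype and the upper end mutant, with overlap between 229.9 and 237 CPM. Its difference was 0.21 ± 0.086 (edgeR unadjusted p = 0.029, adjusted p = 0.918), and 0.14 ± 0.069 without mutant male 6. The difference of Cdkn1c was 0.02 ± 0.066 among the 5 libraries with high mt-Nd6 and 0.35 ± 0.11 among the other 7. Cdkn1b (ENSMUSG00000003031, chromosome 6, 134920401 to 134925513) ran from 139 through 161 to 200.1 CPM in wildtype and from 134 through 165 to 188 CPM in mutants, a difference of -0.04 ± 0.13 (-0.07 ± 0.14 without mutant male 6) whose sign turned in several alternative fits.

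S phase genes were then set against mitosis genes. The median log2 difference of the 11 replication genes was -0.0096 and that of the 22 mitosis genes (entry, exit, spindle and chromosomes) was -0.0186, so that the 2 medians differed by 0.0091. This value has no test; in its 19 alternative settings it ran from -0.0153 to 0.0651. Per library, the mean log2 CPM of replication genes minus that of mitosis genes was 0.53 ± 0.049 in wildtype and 0.57 ± 0.15 in mutants (SD, n = 6 each). It ran from 0.43 to 0.59 in 11 libraries and was 0.83 in mutant male 6. The other mutants lay within or just below the range of wildtype, and the group means lay closer together than 1 SD of either group.

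**Figure D3:**
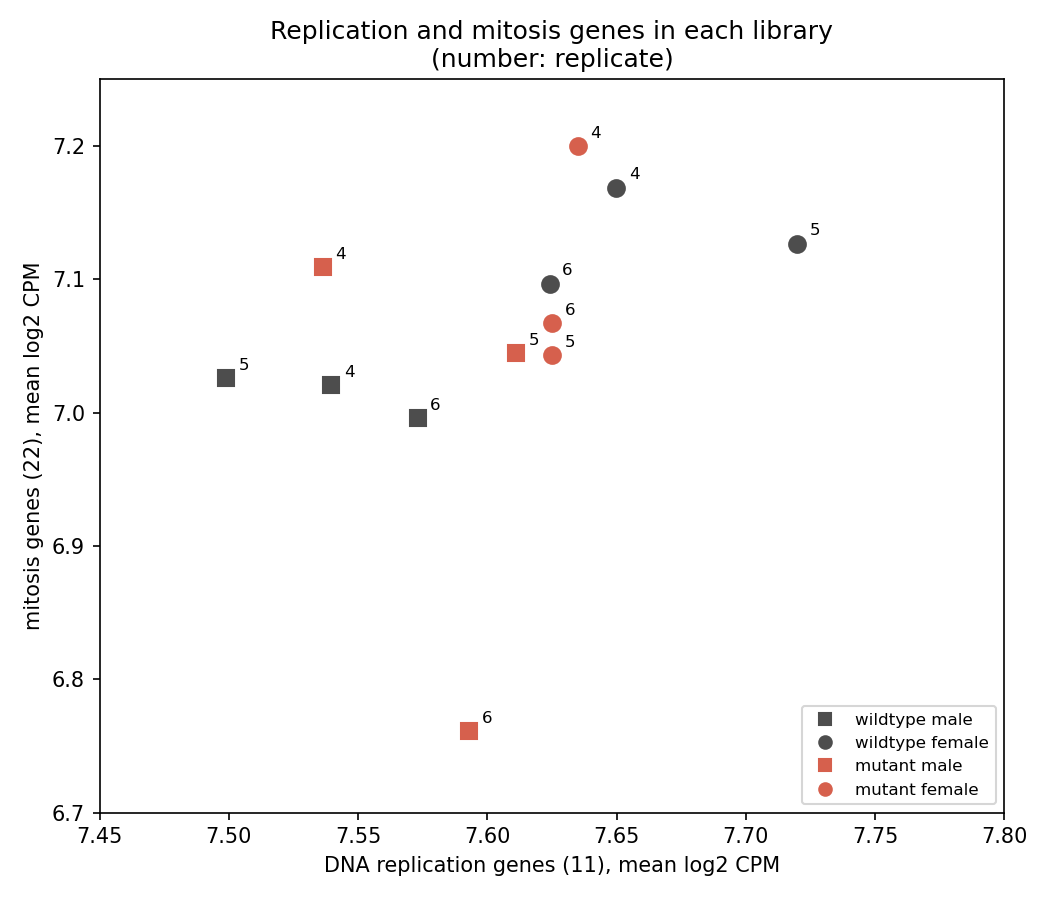
Mean log2 CPM of the 11 DNA replication genes (x axis) against that of the 22 mitosis genes (y axis) in each library, with colour for genotype, shape for sex and the replicate number beside it. Mutant male 6 lies lowest on the mitosis axis at 6.76, and wildtype males lie to the left of wildtype females.

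Within each sex again 0 members passed the adjusted threshold. In males, where 0 of 14945 genes passed (0%) and 1.41% had an unadjusted p below 0.05, 25 members were above 0 and 18 below, with a median of 0.03; of all genes, 51.2% were above 0. Ube2c (ENSMUSG00000001403, chromosome 2, 164769898 to 164778822), the ubiquitin-conjugating enzyme of the anaphase-promoting complex, was at 134, 124 and 143 CPM in wildtype males and 146, 159.7 and 163 CPM in mutant males. All 3 mutant males lay above all 3 wildtype males, as they did in 2.48% of all genes (5.38% in either direction). Its difference in males was 0.23 ± 0.096 (edgeR unadjusted p = 0.045, adjusted p = 0.994), and 0.716% of all genes were higher at that unadjusted level. Mcm3 was next at 0.22 ± 0.13, and at 0.10 ± 0.10 without mutant male 6. Leaving out mutant male 6 turned the count in males to 33 above and 10 below, with no share of all genes given beside it. Without mutant male 4, 8 members had an unadjusted p below 0.05, beside 1833 of all genes, and without any other single male library 0 did.

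In females 1 of 14956 genes passed (0.00669%, and 2 genes with the replicate number as a block), 2.63% had an unadjusted p below 0.05, and 22 members were above 0 and 21 below, against 48.3% of all genes above 0. Female groups did not overlap in 6 members, against 8.09% of all genes. Higher in each mutant female, as were 4.23% of all genes, were Bub1b, a checkpoint kinase, and Mki67. Lower in each mutant female, as were 3.86% of all genes, were Pcna, Rrm2, Aurka and Ttk. Rrm2 had the lowest p, at -0.17 ± 0.062 (edgeR unadjusted p = 0.026, adjusted p = 0.986), where 1.32% of all genes were lower at that unadjusted level, and Cdkn1c followed at 0.23 ± 0.10 (edgeR unadjusted p = 0.051). The other non-overlapping members had differences of 0.06 (Bub1b), 0.17 (Mki67), -0.13 (Pcna), -0.11 (Aurka) and -0.13 (Ttk). Without mutant female 4, 11 members had an unadjusted p below 0.05, 10 of them lower in mutants, beside 2175 of all genes in either direction. The share of all genes lower at that level is not given for that fit. Without wildtype female 5 the count of members was 0, and without any other single female library it was 1 or 2.

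Whether the genotype difference itself differed by sex was tested by the interaction, in which 0 of 15467 genes passed (0%) and 1.73% had an unadjusted p below 0.05. Of the members 16 were more positive in females and 27 more negative, with a median of -0.06; of all genes, 48.7% were more positive. Ube2c stood first: its females were at 142, 152 and 131 CPM in wildtype and 124, 145 and 134 CPM in mutants, overlapping and lower on average in mutants, and the interaction was -0.30 ± 0.12 (edgeR unadjusted p = 0.024, adjusted p = 1), where 0.782% of all genes were more negative at that unadjusted level. Mki67 came next at 0.37 ± 0.20 and was at 0.20 ± 0.14 without mutant male 6.

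Between female and male pools, too, 0 members passed the adjusted threshold (edgeR adjusted p of 0.879 or more), where 2 of all genes did (0.0129%). In the same fit, 34 of 43 members were higher in females and 9 lower, with a median of 0.07 against 0.0032 for all genes, of which 50.9% were higher in females. The counts by role were 9 of 9 spindle and chromosome genes (median 0.20), 12 of 13 genes of mitotic entry and exit (0.07), 10 of 11 replication genes (0.10) and 2 of 8 genes of G1 and S entry (-0.02). An unadjusted p below 0.05 was reached by 7 members, all higher in females, that is 16.3% against 2.79% of all genes and 1.22% higher in females. They were Cdc6, Mcm4, Rrm1 and Rrm2 of replication and Top2a, Kif11 and Tpx2 of the spindle and chromosomes. All members come from the same 12 libraries, so their counts are a description and not 43 separate results.

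Rrm2 had the lowest p of them. Males ran from 168 CPM to 202 CPM and females from 202 CPM to 239 CPM, and the groups overlapped only by mutant female 6 and wildtype male 6. Its difference between females and males was 0.21 ± 0.051 (edgeR unadjusted p = 0.0011, adjusted p = 0.879), from 0.18 to 0.23 in 20 alternative fits. Tpx2 (ENSMUSG00000027469, chromosome 2, 152847964 to 152895321), which recruits the kinase Aurora A to the spindle, was at 248, 225 and 256 CPM in wildtype males and 251, 258 and 217 CPM in mutant males. Females had 256, 268 and 252 CPM in wildtype and 273, 290.2 and 259.7 CPM in mutants. Its difference was 0.16 ± 0.057 (edgeR unadjusted p = 0.015, adjusted p = 0.879). Rrm1 was the 1 member whose sexes did not overlap, higher in each female, against 0.0970% of all genes (0.200% in either direction), with a difference of 0.17 ± 0.065.

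In 23 of the 43 members females stood higher in both genotypes, a count whose share over all genes was not computed. By group means, 36 were higher in females than in males among wildtype libraries, including all 11 replication genes and all 13 of mitotic entry and exit. Among mutants 26 were, with 6 of 11 replication genes and 7 of 13 of mitotic entry and exit. Without mutant male 6 it was 29 of 43. Replication genes were then 9 of 11 (median 0.09) and those of mitotic entry and exit 6 of 13 (median -0.02). Of the 15467 genes tested, 8184 were higher in females among wildtype and 7956 among mutant libraries, and 7879 among mutants without mutant male 6. In mutants the 9 spindle and chromosome genes had a median of 0.35, and 0.12 when mutant male 6 was left out. Leaving out 1 library at a time gave 29 to 37 members higher in females and 3 to 11 with an unadjusted p below 0.05, the 3 without wildtype female 4, 4 without mutant female 4 and the 11 without mutant male 4, where 1986 of all genes were at that level. With the replicate number as a block it was 33 members higher and 8 at that level, with 0 past the adjusted threshold. With scaling by library totals alone, without TMM factors, the count was 30 higher and 13 lower, with a median of 0.04 against -0.02 for all genes. Markers of retinal progenitors did not share the direction, with 5 of 10 higher in females and a median of -0.0026. How age within E15.5 or litters were spread over the pools of each sex is not in the labels, and their part in this difference was not tested.

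**Figure D4:**
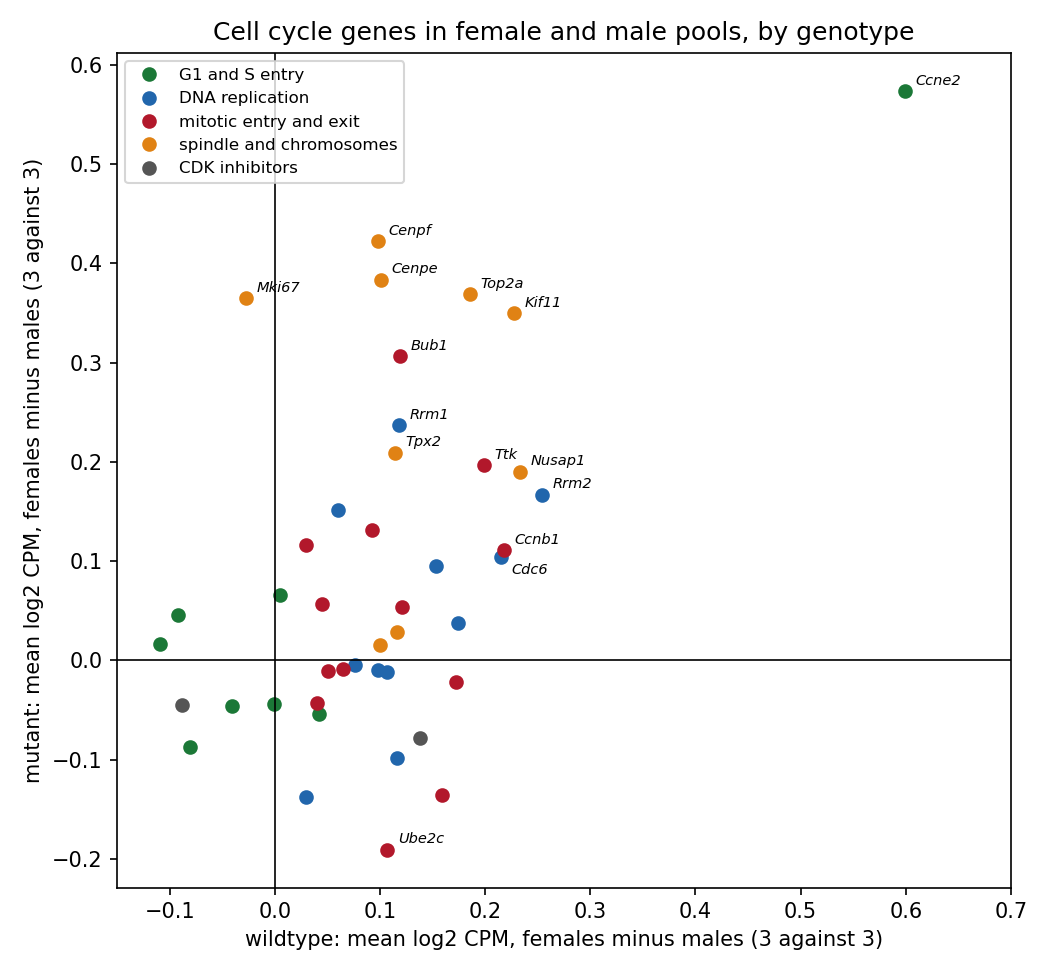
Mean log2 CPM of females minus that of males among wildtype libraries (x axis) and among mutant libraries (y axis), 3 against 3 in each, for the 43 genes coloured by role. Points in the upper right quadrant, 23 of 43, were higher in females in both genotypes, and Ccne2 lies farthest out at 0.60 and 0.57.

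The spread between libraries of a group varied by role. The pooled SD within groups had a median of 0.13 log2 units among members, 0.14 among 8362 genes within the same range of levels and 0.20 among all genes tested. It was lowest in Bub1b at 0.034 and highest in Ccne2 at 0.76. By role its median was 0.23 for spindle and chromosome genes, 0.22 for the 2 CDK inhibitors, 0.15 for G1 and S entry, 0.10 for replication and 0.088 for mitotic entry and exit. Without mutant male 6 it was 0.20 for the CDK inhibitors, 0.14 for G1 and S entry and 0.13 for spindle and chromosome genes. The first place of the spindle genes thus rested on that library. Without it the median was 0.073 for replication and 0.093 for mitotic entry and exit.

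Mutant male 6 was the lowest library for 18 members and the highest for 12, and for 28.4% and 27.2% of all genes. Its 8 spindle and chromosome genes at the low end included Cenpe, a centromere kinesin, at 61.2 CPM against 96.4 to 137 in the others, and Cenpf, a centromere protein, at 107 CPM against 152 to 257. Kif11, the kinesin that pushes spindle poles apart, stood at 110.2 CPM against 160.4 to 209, and Nusap1, a microtubule binder, at 106 CPM against 132 to 185. At its high end were Mcm2 at 348 CPM against 252 to 304, Cdt1 at 97.9 CPM against 65.3 to 85.9, and Plk1 at 129 CPM against 83.8 to 115. The same library was lowest for Pcna, Rrm1 and Rrm2, so the replication genes were on both sides in it. The 5 members of at least 5000 bases had a median deviation of -0.70 from their means in it, against -0.05 for the 38 shorter ones, but role and length go together here. The long members Cenpe, Cenpf, Top2a and Mki67, all of the spindle and chromosomes, were at -0.81, -0.80, -0.70 and -0.59, while the long G1 cyclin Ccnd2 was at 0.16. The shorter Bub1, Kif11, Ttk and Nusap1 were at -0.70, -0.69, -0.56 and -0.53. The correlation of deviation with log2 length in that library was -0.394 across the 43 members and -0.012 across all genes tested, which are not independent replicates. In the other libraries it ran across members from -0.324 (wildtype male 6) to 0.506 (mutant female 4). In mutant female 4 the long members had a median deviation of 0.32. In mutant male 6 the median over all 2956 tested genes of at least 5000 bases was -0.10, and -0.59 was the median of the spindle and chromosome genes. The part of length or RNA quality in this was not tested. This library also had the fewest genes with reads, 16903, and the highest summed level of progenitor markers, 4327 CPM.

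**Figure D5:**
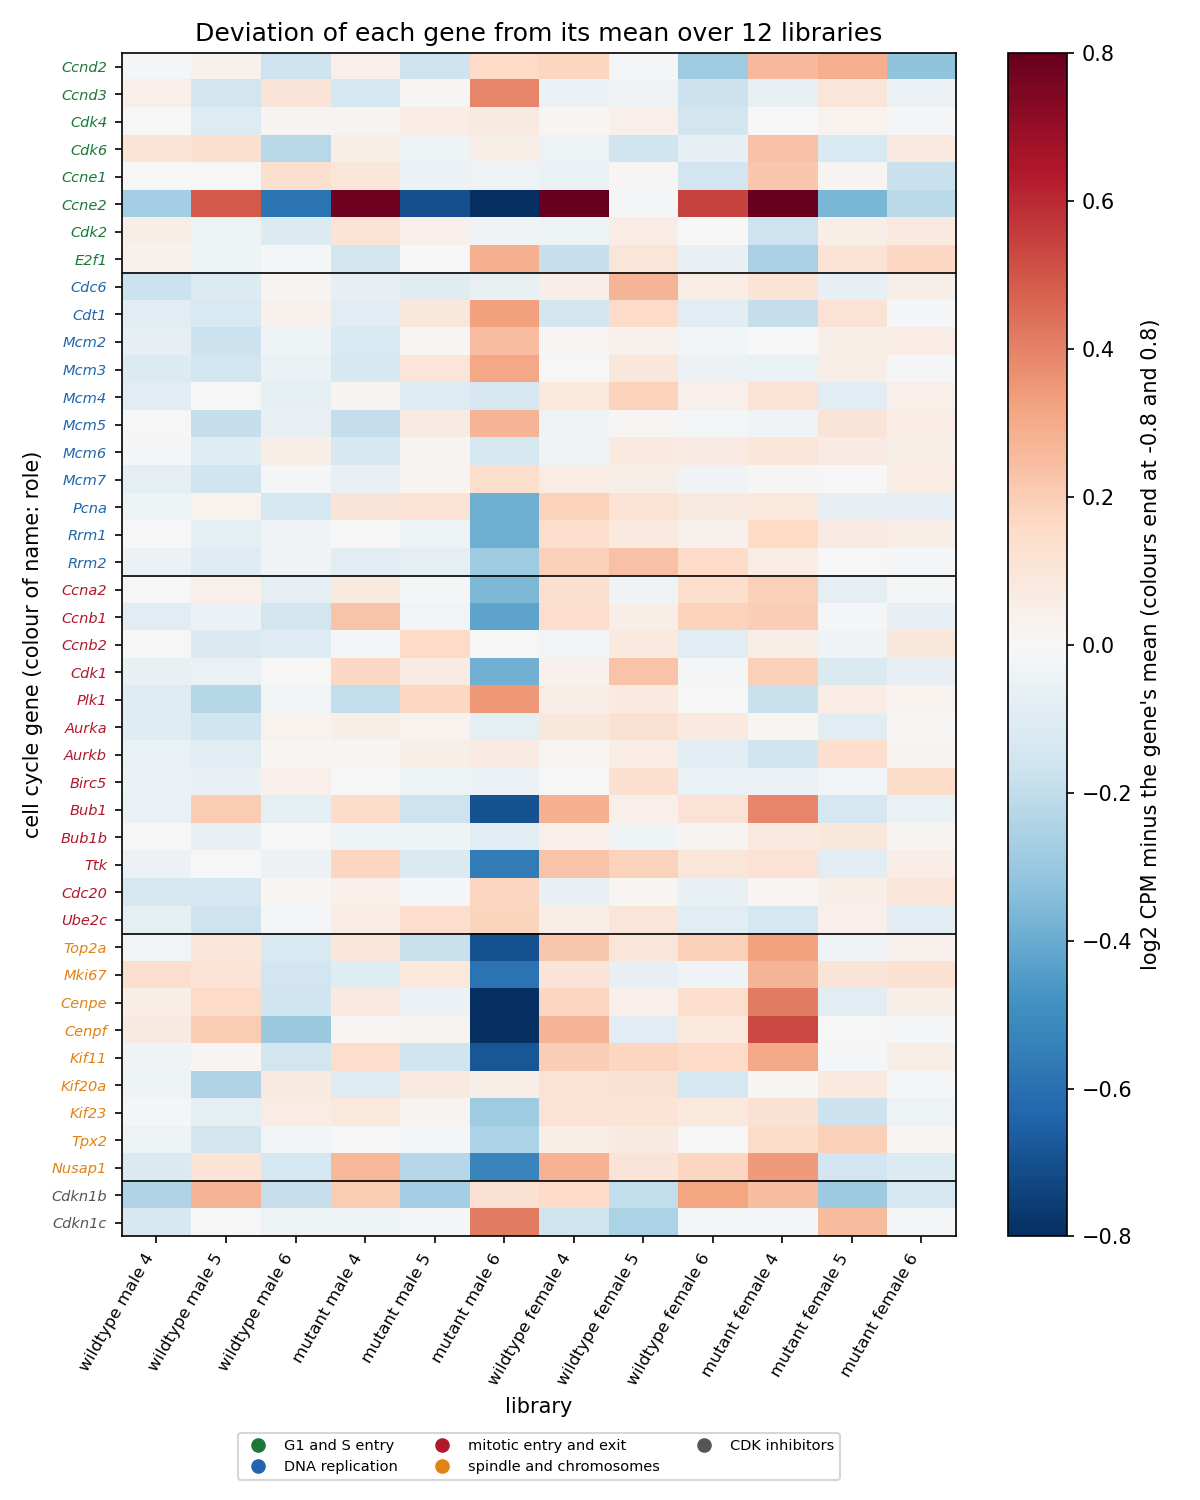
Deviation of log2 CPM of each gene (rows, by role) from its mean over the 12 libraries (columns), blue for lower and red for higher. Mutant male 6 is blue across most spindle and chromosome genes, with a median of -0.59 there, and Ccne2 spans the widest range of colours.

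Ccne2 followed another division of the libraries. Among the 5 libraries with much mt-Nd6 its level was 26.5 CPM in wildtype male 5, at 32.6 in mutant male 4, at 35.1 and 27.5 in females 4 and 6 of the wildtype, and at 34.8 in mutant female 4. In the other 7 it ran from 6.91 to 19.1 CPM, with no overlap. E2f1 went the other way, at 97.4 to 115 CPM in the first and 122 to 149.6 CPM in the second. Ccnd3 and Cdt1 were also lower, and Bub1 and Cenpe higher, in each library of the first set. These 6 of 43 members stand beside 15.7% of all genes that do not overlap between the sets (9.35% higher and 6.35% lower in the first), so the share among members is near the background. Each genotype and sex holds libraries of both sets, and a term for the set left 0 members past the threshold, with 9 of all genes past it. Ccne2, with a listed length of 3006 bases, shares 609 exon bases with Ints8 on the opposite strand in the GENCODE annotation. The strand setting of the counting is not given in the sources used here. How reads on the shared bases were assigned is therefore not known, while reads wholly on the other bases are not affected. Such a shared stretch lay in 14 of the 43 members, among them Cdk4 (641 bases shared with Tspan31), Cdkn1c (625, Gm44732), Ube2c (592, Tnnc2) and Kif20a (1271, Cdc23). It was as short as 53 bases in Cdc20 and 34 in Cdk2. The same annotation names pseudogenes after Pcna, Ccnb1, Ccnb2 and Ccnd3; whether reads were shared with them was not tested.

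Other genes of the pathway also lay on both sides of 0. Of 43 other replication genes (origin, polymerase and fork factors), 20 were above 0 and 23 below in mutants of both sexes, and 0 had an unadjusted p below 0.05. Of 50 other mitosis genes, 21 were above and 29 below, and 1 reached that level, Gtse1, a G2 gene of microtubules and p53 control, at 0.16 ± 0.072 (edgeR unadjusted p = 0.040). Of 29 other genes of G1, checkpoints and cell cycle brakes, 16 were above and 13 below, with 1 at that level, the inhibitor gene Cdkn2a at 1.14 ± 0.52 (edgeR unadjusted p = 0.045). Cdkn2a rests on 1 to 15 counts per library. Ccnd1 ran from 2758 to 3544 CPM and differed by 0.09 ± 0.058. None of these genes passed the adjusted threshold in any of the 5 comparisons.

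Within females the flap endonuclease gene Fen1 differed by 1.08 ± 0.41 on 18 to 62 counts, and Slbp, which binds histone RNA in S phase, by -0.17 ± 0.071. The interaction named Fen1 at 1.49 ± 0.58, Pole2, a polymerase subunit, at -0.35 ± 0.16 and Skp2, which marks Cdkn1b for destruction, at -0.34 ± 0.14. Between the sexes, other mitosis genes stood 38 higher in females and 12 lower (median 0.09), other replication genes 34 and 9 (median 0.09), and other G1 genes 22 and 7 (median 0.05). Of all genes, 50.9% were higher in females. Kif2c at 0.16 ± 0.050, Kif14 at 0.16 ± 0.058, Prc1 at 0.17 ± 0.071 and Ckap2l at 0.14 ± 0.055, all of the spindle, had an unadjusted p below 0.05 there, all higher in females. They are 8% of the other mitosis genes, and 0 of the other replication or G1 genes reached that level. Of all genes, 2.79% reached it and 1.22% did so higher in females. These lists come from the same 12 libraries as the members, so their counts are a description too.

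The authors' deposited tables, from their own DESeq2 comparison, also list 0 of 43 members with an adjusted p below 0.05. Few of all listed genes passed there: 15 of 19954 for both sexes, 6 of 20379 in males and 9 of 19954 in females. The lowest value of a member was 0.951 for both sexes. The lowest adjusted p of a member in the authors' deposited tables is 0.99924 in males and 0.99991 in females. Log2 fold changes of the members there run from -0.10 to 0.17 for both sexes in the authors' deposited table. At an unadjusted p below 0.05 the authors' deposited table of both sexes has 2 members, Cdc20 and Cdkn1c; it gives Rrm2 a log2 fold change of -0.10 with p = 0.127.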

How the data were processed

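RNA sequencing of 12 pooled retina libraries was analysed from the tables the authors deposited. The submitters' processing notes name CASAVA, STAR 2.5 with mm10, HTSeq 0.6.1 and DESeq2. An annotation release and a strand setting for the counting are not stated there. Per the file headers, the deposited counts are whole reads per gene and library with no normalization, the deposited FPKM values are scaled by gene length and library total, and the deposited log2 fold changes, p-values and adjusted p-values are the authors' own comparison. A further 48 value columns were not used.

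Tests used the counts with edgeR 4.0.16 in R 4.3.3: TMM scaling, filterByExpr on the groups, glmQLFTest, two-sided, Benjamini-Hochberg over all genes tested, threshold 0.05. The fit of both sexes had terms for genotype and sex; males and females were also fitted alone, and the interaction over 4 groups. Standard errors are the log2 difference over the square root of F, and intervals are at 95%. CPM values are counts over library totals; log2 CPM values used TMM and a prior count of 2. DESeq2 1.42.0 and limma 3.58.1 (voom) were alternatives, and each test was checked on simulated counts. Sequences come from RefSeq.

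Members and lists were chosen with earlier results of these data known. Values by library are given for the 2 members of each role with the smallest p over both sexes and for Mki67, Pcna, Ccnd2, Cdk4, Cdkn1b and Cdkn1c, and in the other comparisons the 2 members with the smallest p are named; of other pathway genes, up to 3 per list and direction with an unadjusted p below 0.05. Ccnd1, the members of the extreme libraries and those divided by mt-Nd6 were chosen after their values were seen. Deviations from the group means were correlated between libraries over the genes tested. Same-numbered libraries all correlated above 0.1 between wildtype and mutant females (0.210, 0.213 and 0.138) and between mutant males and mutant females (0.441, 0.206 and 0.219). They did not in the other 4 pairs of groups, such as wildtype and mutant males (-0.205, 0.008 and 0.293) or wildtype males and females (-0.073, -0.273 and 0.087). Differently numbered libraries ran from -0.39 (wildtype male 5 with mutant female 6) to 0.436 (wildtype male 5 with mutant male 4). The fit with the replicate number as a block was run for each comparison. Spreads and differences of all members without mutant male 6 were added after the data were seen. Lists of markers covered progenitors, neurogenic precursors, ganglion, amacrine and horizontal cells, photoreceptor precursors, lens, pigment epithelium, blood, vessels and mesenchyme, and microglia. Their medians over both sexes, mutant minus wildtype, were 0.06, 0.01, -0.04, -0.07, -0.07, 1.43, -0.07, -0.18, -0.03 and 0.15, with no gene past the threshold.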

Additional observations from a re-analysis of the deposited data

How the results depend on the processing

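No member passed the adjusted threshold in any of the 84 alternative fits over the 5 comparisons. Counts of all genes past it moved by more than 1.5 times as follows. For both sexes, 4 in the reported fit, DESeq2 gave 15, the replicate block 2, a term for the library set 9, and leaving out the 3 libraries highest in Cryaa 0; leaving out 1 library at a time gave 1 to 5. Leaving out any 1 of wildtype males 4, 5 and 6, mutant males 4 and 5, wildtype females 4 and 5 or mutant female 6 lowered this count to 1 or 2. For males, 0 in the reported fit, DESeq2 gave 6. For females, 1 in the reported fit, DESeq2 gave 9, the replicate block 2 and leaving out 1 library at a time 0 to 2. For females against males, 2 in the reported fit, leaving out the 3 libraries highest in Cryaa gave 1. The cause of these moves was not tested.

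Of 410 values of named members under alternatives, 395 kept their direction and their side of the threshold and 15 turned sign. Cdkn1b, at -0.04 in the reported fit, was at 0.039 with a term for the library set, at 0.16 without the 3 libraries highest in Cryaa, at 0.11 within the libraries low in mt-Nd6, and from -0.098 to 0.030 when 1 library at a time was left out. Within the 5 libraries high in mt-Nd6, Mcm5 was at -0.0064, Top2a at 0.067, Kif23 at 0.082, Mki67 at 0.048 and Pcna at 0.0058. Mki67 ran from -0.065 to 0.075 when 1 library at a time was left out. None of these was past the threshold, and the cause was not tested. The replicate block changed no call of a member. With 128 or more counts for every member in every library, no comparison of a member rested on single reads; each group had 3 pools.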
